A study of Rattus norvegicus with 8 samples.

Results

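The genes examined here make cholesterol or control how much of it a cell makes: Hmgcs1, Idi1, Fdft1, Sqle, Lss, Cyp51, Srebf2 and Insig1. The set was chosen as these 8 gene symbols, with earlier results of these data known. All probe sets that the platform annotation assigns to exactly 1 of the 8 were kept. That gave 12 probe sets for 7 genes, out of 31042 tested probe sets and 14217 named genes. No tested probe set was mapped to Hmgcs1, which was not analysed here. No member encodes a receptor for low-density lipoprotein (LDL), so the set describes sterol synthesis and its regulators, not LDL uptake. RNA came from the whole blood of male Wistar rats, which were bought at 7 weeks of age and acclimated for 1 week. One group of 4 arrays came from rats given a high-fat diet (Quick fat) with 1% mulberry leaf powder for 8 weeks, and the other 4 from rats given that high-fat diet alone. Blood was drawn on day 56 after a night without food, and each diet had 10 rats; a normal-diet group was not analysed here. The labels call the arrays biological replicates without saying whether an array holds 1 rat or a pool, and the p-values therefore cover only how much these samples vary, which may be technical.

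Cholesterol is built from acetyl units through the mevalonate pathway, which yields isoprenoids that are joined into squalene and then closed into sterols. The transcription factor SREBP-2, encoded by Srebf2, is held in the endoplasmic reticulum by INSIG proteins while sterols are plentiful. When sterols run short it is released, cut and moved to the nucleus, where it switches on the synthesis enzymes, its own gene and Insig1. Maturing red cells lose the organelles that house this pathway, so in blood it runs chiefly in nucleated leukocytes.

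Promoters are shown for 3 members, because Srebf2 and Idi1 had the largest differences among the members with a listed promoter and Insig1 is the feedback gene of the pathway. Each runs from 250 bases before to 50 bases after the transcription start, 5′ to 3′ along the gene, from RefSeq (GRCr8). The promoters available here covered 6 of the 8 members. Capitals mark a match to the sterol regulatory element searched as TCACNCCA in Srebf2, to CCAAT (read as ATTGG on the opposite strand) in Idi1, and to CACGTG and CCAAT in Insig1.
Srebf2, chr7:115543057-115543356, plus strand: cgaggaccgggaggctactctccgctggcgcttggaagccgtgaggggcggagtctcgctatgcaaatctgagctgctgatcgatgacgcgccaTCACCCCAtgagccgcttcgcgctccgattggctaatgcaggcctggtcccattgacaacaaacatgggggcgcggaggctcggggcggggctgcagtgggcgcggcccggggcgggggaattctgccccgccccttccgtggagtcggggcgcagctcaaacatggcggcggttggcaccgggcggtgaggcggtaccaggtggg
Idi1, chr17:66547475-66547774, minus strand: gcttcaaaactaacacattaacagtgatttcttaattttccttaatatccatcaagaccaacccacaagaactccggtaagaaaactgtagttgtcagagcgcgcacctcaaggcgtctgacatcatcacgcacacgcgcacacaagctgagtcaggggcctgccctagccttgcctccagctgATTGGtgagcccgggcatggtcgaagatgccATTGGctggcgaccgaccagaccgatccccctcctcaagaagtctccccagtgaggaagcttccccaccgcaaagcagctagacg
Insig1, chr4:8057720-8058019, minus strand: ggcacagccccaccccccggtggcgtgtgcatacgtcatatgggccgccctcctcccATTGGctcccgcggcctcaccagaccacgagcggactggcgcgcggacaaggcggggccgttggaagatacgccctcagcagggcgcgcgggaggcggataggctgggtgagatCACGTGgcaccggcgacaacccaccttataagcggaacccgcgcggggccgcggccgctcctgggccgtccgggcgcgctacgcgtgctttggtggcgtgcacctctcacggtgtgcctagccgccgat
TCACNCCA, looked for on both strands, was found in Srebf2 and in none of the other 5 member promoters, and in 3.89% of all 33469 promoters. CACGTG, an E-box that reads the same on both strands and that SREBPs can also bind, was found in Insig1 among the 6, and in 6.42% of all promoters. CCAAT, the box bound by NF-Y, was found on either strand in 5 of 6 member promoters (Hmgcs1, Idi1, Lss, Srebf2 and Insig1) and in 37.5% of all. GGGCGG, the box bound by Sp1, was found on either strand in 5 of 6 (Hmgcs1, Lss, Cyp51, Srebf2 and Insig1) and in 33.1% of all. The 4 motifs do not overlap one another in the 3 printed promoters, and a match describes these letters in this window only.

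The deposited values are log2 probe set levels between 5.17 and 15.26. Mean levels of the member probe sets ran from 6.20 to 8.40. Probe sets differ in how brightly they read, so levels were not ranked between genes, and detection calls were not used here. The labelled tissue was borne out by its defining markers, with levels up to 15.09 for Hbb among the erythroid genes, 13.18 for the monocyte gene Lyz2 and 10.52 for the T cell gene Cd3g. Probe sets of 5 genes taken as hepatocyte markers (Alb, Apoa1, Ttr, Serpina1 and Cyp2e1) read 5.83 to 6.71. Of the 12 member probe sets 7 read within that span, as did Cd14 (6.68), Cxcr2 (6.37) and Mmp8 (6.44), markers of monocytes and neutrophils, so a reading there does not show whether a transcript was present. The 5 above it, where 41.8% of all tested probe sets lay, were Srebf2 1371979_at at 8.40, Insig1 at 7.08, Lss 1372973_at at 7.04, and Fdft1 1367839_at and Lss 1368086_a_at at 6.76 each.

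The spread between arrays was very small on this scale. The SD of a member probe set over the 8 arrays lay between 1.5e-06 and 4.36e-05 on the log2 scale, and 99.4% of all probe sets had an SD under 0.001. Differences between arrays have thus been shrunk to an unknown extent and are not fold changes. Each value below is a deviation from the probe set's mean over the 8 arrays, divided by its SD over those arrays (SD units), and each difference is mulberry minus high-fat. Under another normalization, or with an array left out, the SD was taken anew from the values of that setting. Sizes given for such settings are therefore not on the same scale as those of the deposited values. Across the members no diet difference passed the test: in the limma fit over all 31042 probe sets the Benjamini-Hochberg adjusted p was 1 for each of the 12, and 0% of all probe sets passed (0 of 31042). At an unadjusted p under 0.05 there were 0 of the 12 members and 4.36% of all probe sets (1352). Arrays of the 2 diets overlapped in 12 of the 12, where 2.52% of all probe sets had no overlap.

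Srebf2 had the largest difference of the set. Its probe set 1371979_at read -1.42, -1.32, 0.148 and 0.0107 in mulberry replicates 1 to 4, against -0.136, 1.22, 0.212 and 1.29 in high-fat replicates 1 to 4. Mulberry replicates 1 and 2 were below every high-fat array, high-fat replicates 2, 3 and 4 were above every mulberry array, and the groups overlapped through high-fat replicate 1. The mean was -0.646 ± 0.840 with mulberry and 0.646 ± 0.717 with the high-fat diet alone (SD, n = 4 each). The difference was -1.29 ± 0.560 (SE; 95% interval -2.62 to 0.0405; two-sided exact permutation p = 0.114; limma adjusted p = 1). It stayed between -1.44 and -1.17 when any single array was left out, but turned to 0.707 after quantile normalization and to 1.08 after median centring. A second Srebf2 probe set, 1377489_at, read 1.34, 0.0729, 0.771 and -1.76 with mulberry and -0.442, -0.154, 0.886 and -0.708 without. There the mulberry arrays enclosed all 4 high-fat arrays, and the difference was 0.209 (95% interval -1.78 to 2.20; -0.707 after quantile normalization and -0.87 with hybridization controls in the model). It was -0.222 without mulberry replicate 1 and -0.0127 without mulberry replicate 3. The 2 Srebf2 probe sets lay on the same side of their means on 3 of 8 arrays.

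Insig1 encodes a sterol-sensing protein that retains SREBP-2, and the gene is itself an SREBP target. It read 0.194, -0.339, -0.762 and 0.226 in the mulberry arrays. In the high-fat arrays it read -0.814, 0.381, -0.990 and 2.10. High-fat replicate 4 stood far above the other arrays, which lay between -0.990 and 0.381. The diet difference was -0.341 ± 0.706 (SE; 95% interval -2.02 to 1.34; exact permutation p = 0.771; limma adjusted p = 1). Without high-fat replicate 4 the difference was 0.535, without high-fat replicate 1 or 3 it was -0.656 and -0.735, without mulberry replicate 3 it was -0.14, and the value was 0.583 after median centring and 0 after quantile normalization. On that same high-fat replicate 4 the means of 5 monocyte markers and of 5 natural killer cell markers stood at 1.93 and 2.34 SD units, the highest of the 8 arrays for both, and their part in the Insig1 value was not tested. In whole blood, fewer cells of a type and less RNA per cell cannot be told apart.

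**Figure D1:**
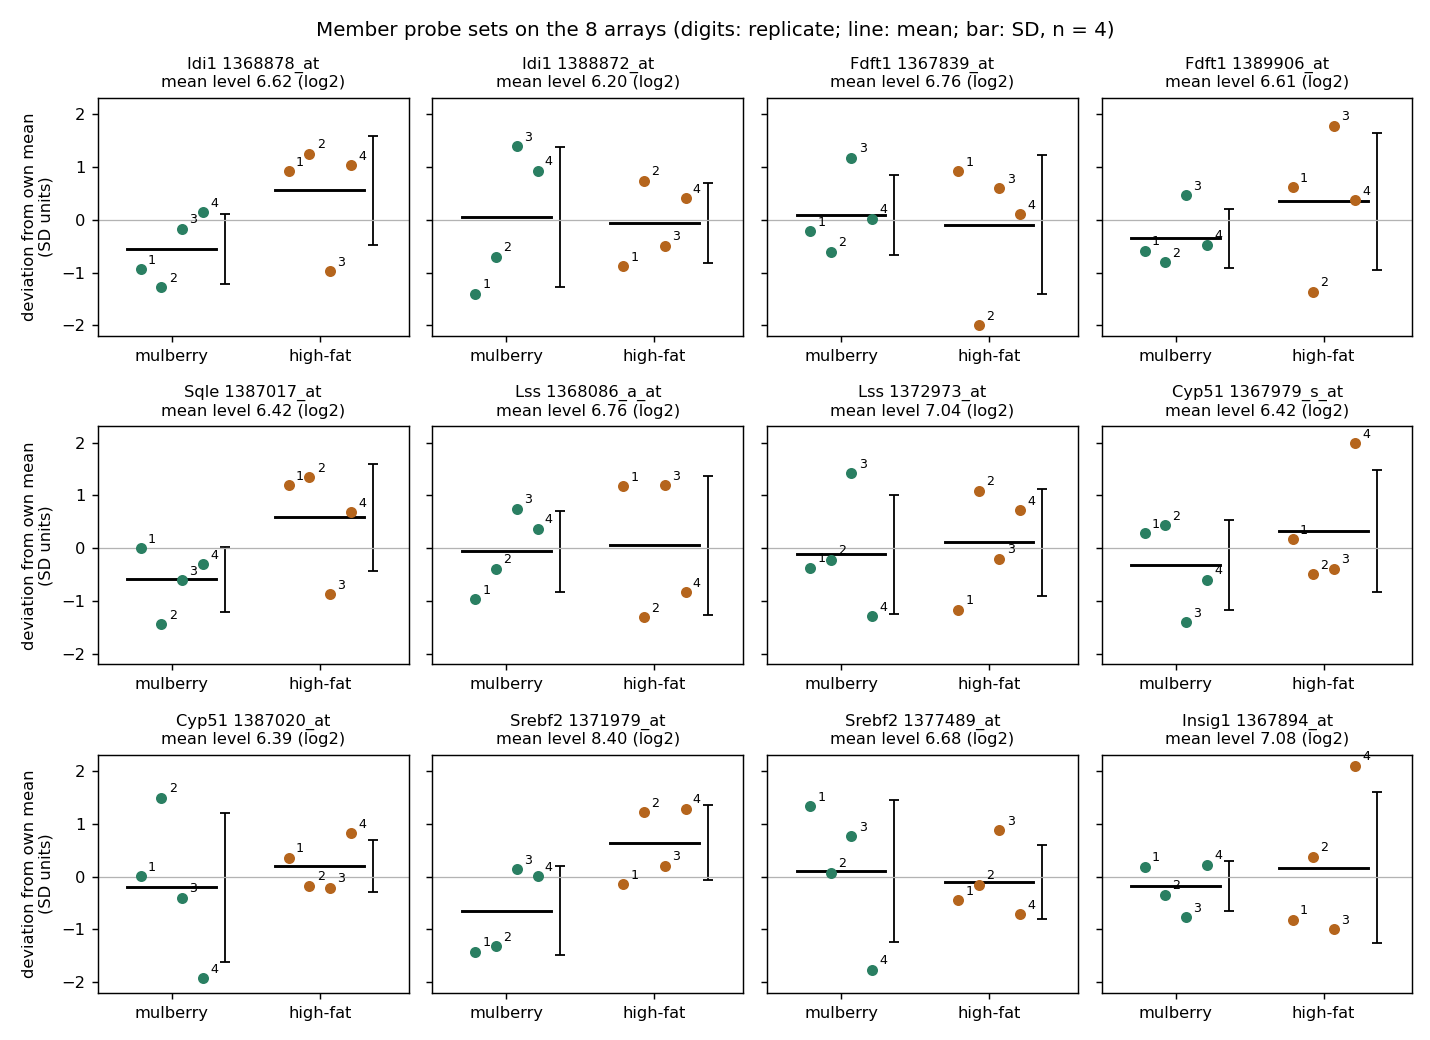
Deviation of each of the 12 member probe sets from its own mean, in SD units, on the 4 mulberry arrays (green, left) and the 4 high-fat arrays (brown, right); digits give the replicate, horizontal lines the mean and bars the SD (n = 4). The 2 diets overlapped in all 12 panels, and high-fat replicate 4 stood at 2.10 for Insig1 and 2.0 for Cyp51 1367979_s_at.

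In the mevalonate branch Idi1, the isomerase that turns isopentenyl into dimethylallyl diphosphate, was measured by a pair of probe sets with unlike differences. On 1368878_at the mulberry arrays read -0.938, -1.28, -0.167 and 0.149, against 0.916, 1.26, -0.975 and 1.04 in the high-fat arrays. High-fat replicates 1, 2 and 4 were above every mulberry array, and high-fat replicate 3 was lower than 3 of the 4 mulberry arrays. The difference was -1.12 ± 0.577 (SE; 95% interval -2.49 to 0.255; exact permutation p = 0.143; limma adjusted p = 1). The second probe set, 1388872_at, read -1.40, -0.699, 1.39 and 0.928 with mulberry, against -0.881, 0.742, -0.491 and 0.411 without. Its difference was 0.110 ± 0.724 (SE; 95% interval -1.61 to 1.83), although the 2 probe sets lay on the same side of their means on 6 of 8 arrays. Probe set 1388872_at turned negative without high-fat replicate 1 or 3 (-0.164 and -0.0337), without mulberry replicate 3 or 4 (-0.377 and -0.181) and after quantile normalization (-0.707), and 1368878_at turned to 0.21 after median centring.

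Sqle encodes squalene epoxidase, a rate-limiting oxygenase of the sterol branch. Its probe set 1387017_at read -0.00222, -1.44, -0.608 and -0.3 in the mulberry arrays, against 1.20, 1.35, -0.872 and 0.678 in the high-fat arrays. All 4 mulberry arrays were below the probe set's mean and 3 of 4 high-fat arrays above it, and high-fat replicate 3 again lay among the mulberry values. The difference was -1.18 ± 0.598 (SE; 95% interval -2.60 to 0.247; exact permutation p = 0.114; limma adjusted p = 1; 1.11 after median centring). High-fat replicate 3 was the lowest high-fat array for Sqle as for Idi1 1368878_at. Without it the difference was -1.64 for Sqle (limma adjusted p = 0.686) and -1.64 for Idi1 1368878_at (limma adjusted p = 0.666).

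Fdft1 (squalene synthase), which commits isoprenoids to the sterol branch, gave values without a common direction. Probe set 1367839_at read -0.220, -0.606, 1.17 and 0.0190 with mulberry, against 0.922, -2.0, 0.599 and 0.109 without. Its difference was 0.183 ± 0.842 (SE; 95% interval -1.82 to 2.19), which became -0.708 without high-fat replicate 2, its lowest array, and -0.186 without mulberry replicate 3. Probe set 1389906_at read -0.590, -0.809, 0.464 and -0.471 with mulberry, against 0.613, -1.36, 1.78 and 0.373 without. Its difference was -0.703 ± 0.668 (SE; 95% interval -2.29 to 0.888; exact permutation p = 0.343), and it was -1.42 without high-fat replicate 2, -0.3 without high-fat replicate 3, 0.907 after median centring and 0 after quantile normalization. The 2 probe sets were on the same side of their means on 7 of 8 arrays, high-fat replicate 2 being the lowest array for both.

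Lss, the cyclase that folds oxidosqualene into lanosterol, showed differences close to 0. Probe set 1372973_at read -0.371, -0.216, 1.43 and -1.29 with mulberry, against -1.16, 1.09, -0.196 and 0.718 without (difference -0.226, 95% interval -2.16 to 1.70). Probe set 1368086_a_at read -0.964, -0.391, 0.752 and 0.369 with mulberry, against 1.18, -1.31, 1.20 and -0.828 without (difference -0.118, 95% interval -1.83 to 1.6). These intervals run over more than 1 SD unit on either side of 0, so a difference of that size either way lies within the error of these data. The 2 Lss probe sets were on the same side of their means on 3 of 8 arrays, and median centring turned both (1.14 and 1.02). Single arrays turned them too: 1372973_at was 0.104 without high-fat replicate 2 and 0.181 without mulberry replicate 4, and 1368086_a_at was 0.269, 0.276 and 0.185 without high-fat replicate 1, high-fat replicate 3 and mulberry replicate 1. With hybridization controls in the model 1368086_a_at was 0.727.

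Cyp51, the demethylase that acts on lanosterol, was the 1 gene whose 2 probe sets lay on the same side of their means on 8 of 8 arrays. The suffix of 1367979_s_at marks probes that can match several transcripts. This probe set read 0.282, 0.434, -1.41 and -0.595 with mulberry, against 0.167, -0.494, -0.384 and 2.0 without. Its difference was -0.642 ± 0.676 (SE; 95% interval -2.25 to 0.967; exact permutation p = 0.486), -0.316 without mulberry replicate 3, and -0.131 without high-fat replicate 4, where monocyte and natural killer cell markers were highest. After quantile normalization it was 0.334, and after median centring 1.13. The second probe set, 1387020_at, read 0.0142, 1.5, -0.395 and -1.93 with mulberry, against 0.362, -0.171, -0.205 and 0.827 without. Its difference was -0.406 ± 0.703 (SE; 95% interval -2.08 to 1.27; 0.935 after median centring), 0.249 without mulberry replicate 4, its lowest array, -1.13 without mulberry replicate 2, its highest, and -0.195 without high-fat replicate 4.

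**Figure D2:**
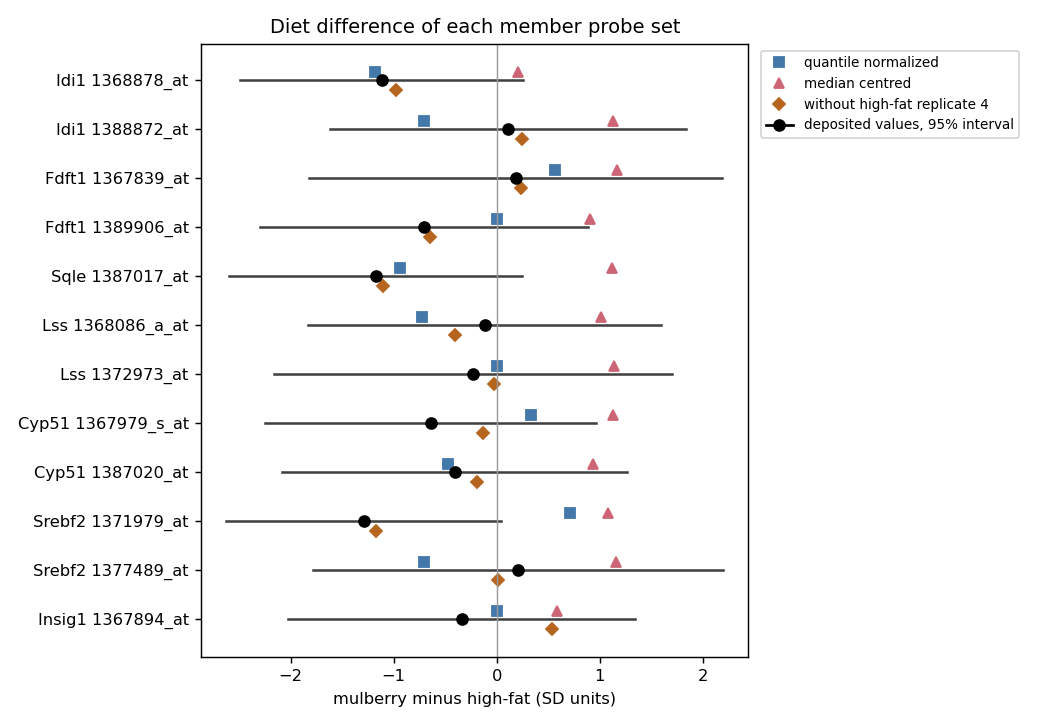
Difference of mulberry minus high-fat in SD units for each of the 12 member probe sets, as black points with 95% limma intervals, beside the value after quantile normalization (squares), after median centring (triangles) and without high-fat replicate 4 (diamonds). All 12 intervals include 0, 9 of 12 points lie below 0, while the 12 median-centred values lie above 0. Median centring made 96.9% of all probe sets higher with mulberry, with a median of 1.15 SD units. Squares, triangles and diamonds use the SD of their own setting, so their distances from the black points are not on a common scale.

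Over the set, 9 of the 12 probe sets had lower means with mulberry, where 47.3% of all tested probe sets did. The other 3 had higher means, where 52.7% did. Members were chosen with earlier results of these data known, so the counts here describe the set and test nothing. With 1 probe set per gene, the one of highest mean, 6 of 7 genes had lower means (Srebf2, Sqle, Idi1, Cyp51, Insig1 and Lss), where 50.9% of the 14217 named genes did. The median difference was -0.374 SD units over the 12 probe sets, -0.642 over the 7 genes by their probe set of highest mean, and 0.0559 over all probe sets. A difference of -1 SD unit or lower was found for 3 of the 12 (Srebf2 1371979_at, Sqle and Idi1 1368878_at) and for 6.31% of all, and one of 1 SD unit or higher for 0 of the 12 and for 9.4% of all. By direction, an unadjusted limma p under 0.05 was reached by 1.61% of all probe sets lower and 2.74% higher with mulberry, and groups free of overlap by 0.915% lower and 1.6% higher. The median over the 12 was -0.163 without high-fat replicate 4, -0.616 without high-fat replicate 1 and -0.667 without high-fat replicate 2. Median centring left 0 of 12 members with lower means. It shifted the median difference of all probe sets to 1.15 SD units and made 96.9% of them higher with mulberry, and the member median of 1.097 then lay below that general shift. Quantile normalization gave lower means for 6 of 12, with 3 probe sets at 0, and made 44.6% of all probe sets lower and 28.1% higher with mulberry.

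Among the 5 members with a pair of probe sets, the pair had diet differences of the same sign for Cyp51 and Lss and of opposite sign for Idi1, Fdft1 and Srebf2. Over all 3061 genes with exactly 2 probe sets the signs were the same in 54.7%, and the median pair lay on the same side of its means on 4 of 8 arrays.

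By array, 4, 3, 7 and 6 of the 12 member probe sets were above their own mean in mulberry replicates 1 to 4, against 7, 6, 5 and 10 in high-fat replicates 1 to 4. Over all probe sets the share above the mean was 49.4%, 52.0%, 54.4% and 47.5% on the mulberry arrays and 45.7%, 51.2%, 50.6% and 44.6% on the high-fat arrays. High-fat replicate 4 thus carried 10 of 12 members above their mean while the share of all probe sets there was the lowest of the 8 arrays. The mean of the 7 genes was -0.354, -0.681, -0.0277 and -0.255 in the mulberry arrays, against 0.155, 0.401, -0.372 and 1.13 in the high-fat arrays.

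Marker lists of blood cells also varied between arrays. Beside the counts of lower genes below, 50.9% of all named genes had lower means with mulberry. The mean of the 5 monocyte markers ran from -1.12 to 0.467 on the mulberry arrays and from -0.622 to 1.93 on the high-fat arrays, with 4 of 5 genes lower with mulberry. The mean of the 5 natural killer cell markers ran from -0.618 to -0.0757 on the mulberry arrays and from -0.385 to 2.34 on the high-fat arrays, with 5 of 5 lower. High-fat replicate 4 set the upper end of both lists. The T cell list averaged -0.283 ± 0.626 with mulberry and 0.283 ± 0.682 without (SD, n = 4 each), with 4 of 6 genes lower. The B cell list averaged -0.446 ± 0.786 with mulberry and 0.446 ± 1.02 without, with 3 of 3 lower. These 4 leukocyte lists, like the mean of the 7 member genes, were lower with mulberry on average, and their part in the member values was not tested. The neutrophil list averaged 0.16 ± 0.881 with mulberry and -0.16 ± 0.902 without, with 2 of 6 genes lower. The platelet list averaged 0.336 ± 0.946 with mulberry and -0.336 ± 0.803 without, with 0 of 5 lower, and the erythroid list -0.056 ± 0.388 with mulberry and 0.056 ± 0.649 without, with 4 of 6 lower. The 18 hybridization control probe sets, for control transcripts added to the hybridization mix, stood at 1.30, 0.695, 0.473 and -0.236 on the mulberry arrays, against -1.44, 0.439, -0.160 and -1.07 on the high-fat arrays. With their mean in the model, 9 of 12 member means were again lower, as were 50.9% of all probe sets. The median member difference was -0.485, but single members moved. Idi1 1368878_at was then -0.64, Fdft1 1389906_at -0.179, Cyp51 1367979_s_at -0.329 and Insig1 -0.214, all nearer to 0. Values farther from 0 were 1.16 for Fdft1 1367839_at, -0.972 for Lss 1372973_at, -0.664 for Cyp51 1387020_at and 0.398 for Idi1 1388872_at. Farther from 0 with a change of sign were 0.727 for Lss 1368086_a_at and -0.87 for Srebf2 1377489_at, so the 9 lower probe sets were not the same 9.

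**Figure D3:**
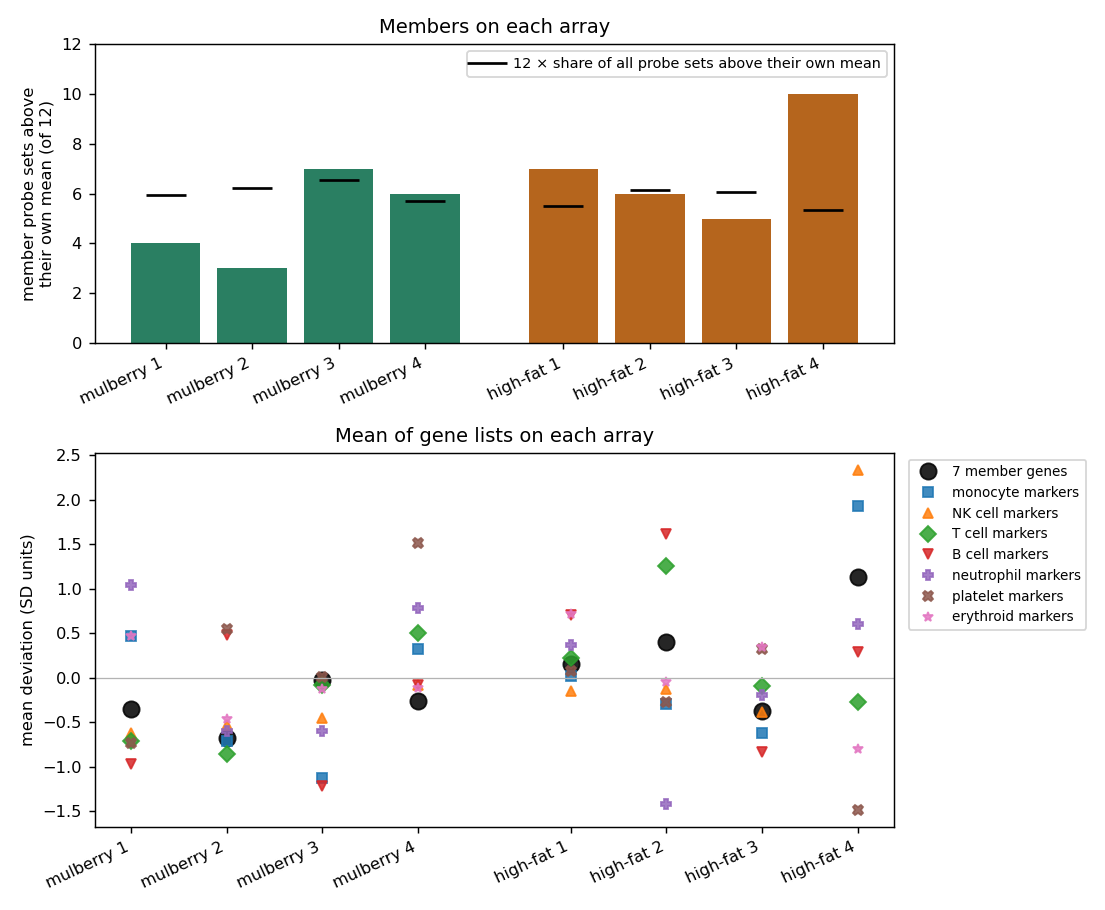
Upper panel, number of the 12 member probe sets above their own mean on each array (bars; mulberry left, high-fat right), with the number that the share of all probe sets would give (black dashes); lower panel, mean deviation in SD units of the 7 member genes and of 7 lists of blood cell markers on each array. High-fat replicate 4 has 10 of 12 members above their mean and the highest monocyte (1.93) and natural killer (2.34) marker means.

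The other genes of cholesterol handling were read on the probe set of highest mean of each gene. Of 36 listed genes, 30 were measured. With mulberry 17 had lower and 13 higher means, where 50.9% of all named genes had lower means. The median difference of the 30 was -0.405, against -0.0190 over all named genes. The other 6 were not analysed here. None of the 30 passed the adjusted limma threshold, and 1 had an unadjusted limma p under 0.05, as did 4.36% of all probe sets. Among the other mevalonate and prenyl genes 3 were lower and 3 higher. Ggps1, which makes geranylgeranyl diphosphate for protein prenylation, differed by -1.11 ± 0.581 (0.957 after median centring, 0 after quantile normalization), and its other 2 probe sets by -1.07 and -0.299. Mvk, mevalonate kinase, differed by 0.4 ± 0.705 (-0.483 after quantile normalization, 0.931 with hybridization controls in the model, and -0.0123 to 0.996 with single arrays left out, the ends being without high-fat replicate 4 and mulberry replicate 1). Its other 2 probe sets differed by 0.0597 and, the opposite way, -0.838.

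The late sterol genes, which trim lanosterol to cholesterol, gave 5 lower and 3 higher means. Hsd17b7, a sterol ketone reductase, read 0.279, 0.808, 1.68 and 0.107 in the mulberry arrays, against -1.46, -0.246, -0.0670 and -1.10 in the high-fat arrays. Its mulberry arrays were all above its high-fat arrays, a pattern seen in 1.6% of all probe sets. Its mean level of 6.70 lay within the span of the hepatocyte markers, where a reading does not show whether a transcript was present. The difference was 1.44 ± 0.482 (SE; exact permutation p = 0.0286, the smallest that 4 against 4 arrays allow; unadjusted limma p = 0.0211, adjusted p = 1; -0.119 after quantile normalization and 0.89 with hybridization controls in the model). The second Hsd17b7 probe set, 1389430_at, differed the opposite way, by -1.03. Nsdhl, which decarboxylates sterol intermediates, differed by -1.12 ± 0.583 (0.483 after quantile normalization, 1.05 after median centring, -0.3 with hybridization controls in the model), and its second probe set by -0.378.

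Of the 7 other regulators, 5 had lower and 2 higher means. Mbtps1, the protease that makes the first cut in SREBP, differed by -0.861 ± 0.642 (0.972 after median centring, -0.533 without high-fat replicate 2). Nr1h2, the oxysterol receptor LXR beta, differed by -0.699 ± 0.671 (1.26 after median centring), and its second probe set by 0.858. The first was -1.06 without high-fat replicate 3, -0.409 without high-fat replicate 4 and -0.301 without mulberry replicate 3. Among 6 genes of lipoprotein uptake and sterol transfer 3 were lower and 3 higher. Mylip, the ubiquitin ligase that marks LDL receptors for breakdown, differed by -0.748 ± 0.658 (0.461 after median centring), and Vldlr, a receptor of that family, by 0.702 ± 0.724 (-0.653 after quantile normalization), with its other 3 probe sets between -1.09 and 1.08. Without high-fat replicates 2, 3 and 4 in turn, Mylip was -0.496, -1.31 and -0.452, and Vldlr was 0.457, 1.55 and 0.384. Of the 3 efflux genes, 1 was lower and 2 higher. Abca1, the cholesterol exporter, differed by -1.11 ± 0.599 (1.00 after median centring) and Apoe, an apolipoprotein, by 0.751 ± 0.662 (-0.571 after quantile normalization, 0.474 without mulberry replicate 2 and 1.41 without mulberry replicate 4). Abca1 was measured by 4 probe sets and Apoe by a pair, with differences between -1.53 and 0.85 for Abca1 and of -0.546 for the second Apoe probe set. By the probe set of highest mean Abca1 read 6.63 and Apoe 6.52, also within the span of the hepatocyte markers.

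**Figure D4:**
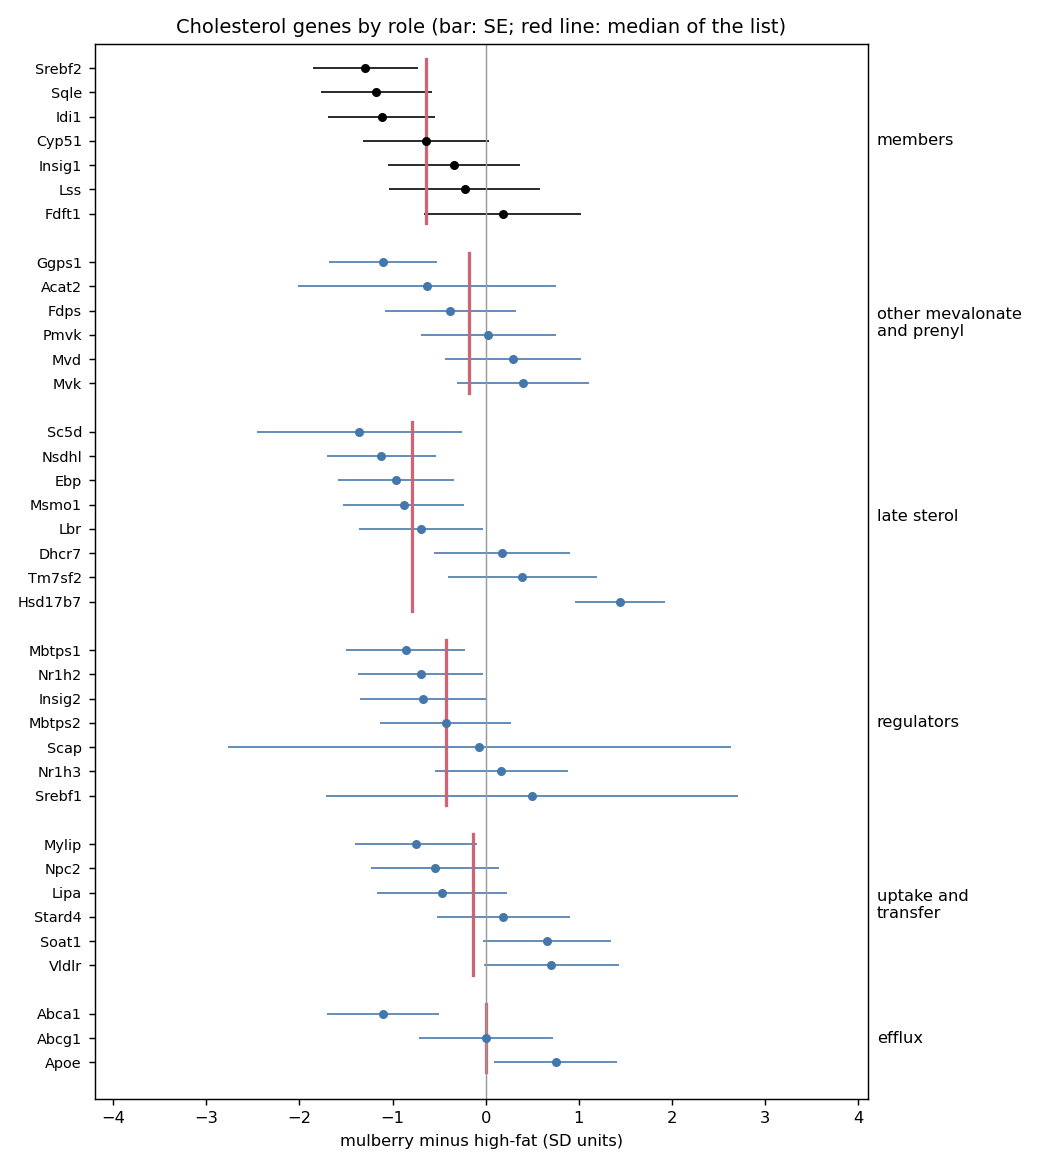
Difference of mulberry minus high-fat in SD units with its SE for the 7 member genes and the 30 other measured cholesterol genes, each by its probe set of highest mean, grouped by role; red lines mark the median of each group. The member median is -0.642, the median of the 30 others is -0.405, and Hsd17b7 is the farthest to the right at 1.44. The wide bars of Scap, Srebf1, Acat2 and Sc5d belong to probe sets of very small SD, whose errors the fit draws toward those of other probe sets.

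The 5 genes outside the set whose values over the 8 arrays lay nearest to the mean of the 7 members were Hsdl2, Mbnl2, Spg21, Tspyl4 and Pdpk1. Their root mean square distances, with each profile at unit SD, were 0.196, 0.254, 0.292, 0.299 and 0.3 SD units, the smallest among 14210 genes. With 8 arrays and that many genes close profiles are easily found, and nothing about function follows from them.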

How the data were processed

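Blood RNA from 8 arrays was analysed. Per the labels' protocols, biotinylated aRNA was made from 200 ng of total RNA for an Affymetrix rat array. From their range, the values that the authors deposited were taken to be log2 probe set levels; how they were summarised and normalized is not given in the sources used here. Of 31099 probe sets, 57 controls were left out. Names came from the platform annotation: 20826 probe sets had 1 gene, 436 several and 9780 none here. All probe sets of a member were kept.

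Each probe set was fitted with limma 3.58.1 in R 4.3.3 (lmFit, eBayes, two-sided, no covariate), adjusted by Benjamini-Hochberg over all 31042, with a threshold of 0.05. Exact permutation tests (scipy 1.17.1, Python 3.11.15) used 70 assignments. No count, interval or floor from depth applies, and 4 arrays per diet limit the precision. In data simulated for this comparison (31042 probe sets), limma called 30% of those moved by 4 within-diet SDs and 98% at 8. Each shift was given to 50 probe sets, and the same run held others moved by 16 and 32. Such large shifts ease the adjustment for the rest, so these shares may be too high for the real data, where 0 passed. Within-diet SDs are not the SD units used above, and no shift under 4 was simulated.

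The named genes were all members, the 2 genes of smallest p in each list of other cholesterol genes, and the 5 nearest profiles. Members and lists were chosen with earlier results of these data known. Alternatives were quantile normalization, median centring, centring in SD units, brighter probe sets, a replicate block, other variance models, hybridization controls and leaving out each array. Replicate numbers are shared by the diets, but the labels do not call same-numbered arrays pairs, and they were not taken as pairs. As deviations from their diet means, same-numbered arrays correlated at -0.0462, -0.0505, 0.246 and 0.163. The other cross-diet pairs correlated at -0.199 to 0.147, which does not settle whether arrays were paired.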

Additional observations from a re-analysis of the deposited data

Results flagged for a closer look

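Idi1 1368878_at stood at -0.976 SD units in high-fat replicate 3, far below the other high-fat arrays, which lay between 0.916 and 1.26. Abca1 1383355_at stood at -0.584 in high-fat replicate 4, apart from the other high-fat arrays at 0.877 to 1.02. In each of these cases, and the 2 that follow, the gap to the nearest other array of the diet took up more of the group's range than Dixon's 95% limit allows. Mvd, mevalonate diphosphate decarboxylase, stood at 2.33 in mulberry replicate 2, against -0.656 to -0.517 in the other mulberry arrays. Stard4, a sterol carrier, stood at 1.93 in high-fat replicate 4, against -0.934 to -0.494 in the other high-fat arrays. Of 24 member groups examined 1 stood out in this way, as did 3 of 60 groups of the other cholesterol genes, and chance gives about 1 in 20 groups.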

How the results depend on the processing

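Over every alternative run, no member probe set passed the adjusted limma threshold. The number of probe sets past it in the whole table was 12 after quantile normalization and 0 otherwise. Median centring gave 0 lower member means of 12, a median member difference of 1.097 and 2 lower means among the 30 other genes. The array medians differed by up to 9.36e-05, more than the SD of any member probe set, and by -3.45e-05 between the diets, and 96.9% of all probe sets were higher with mulberry after this centring, with a median of 1.15. It turned Idi1 1368878_at (0.21), Fdft1 1389906_at (0.907), Sqle (1.11), Lss 1368086_a_at (1.02), Lss 1372973_at (1.14), Cyp51 1367979_s_at (1.13), Cyp51 1387020_at (0.935), Srebf2 1371979_at (1.08) and Insig1 (0.583), and also Ggps1 (0.957), Nsdhl (1.05), Mbtps1 (0.972), Nr1h2 (1.26), Mylip (0.461) and Abca1 (1.00). Quantile normalization turned Idi1 1388872_at (-0.707), Cyp51 1367979_s_at (0.334), Srebf2 1371979_at (0.707), Srebf2 1377489_at (-0.707), Mvk (-0.483), Hsd17b7 (-0.119), Nsdhl (0.483), Vldlr (-0.653) and Apoe (-0.571), and the cause was not tested. The hybridization controls in the model turned Lss 1368086_a_at (0.727) and Srebf2 1377489_at (-0.87).

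Leaving out single arrays gave 8 to 12 lower member means of 12, where 45.7% to 49.2% of all probe sets were lower. Member medians ran from -0.667 to -0.163. An unadjusted limma p under 0.05 was reached by 0 to 2 members, and the share of all probe sets was not counted for these runs. The differences ran from -0.377 to 0.67 for Idi1 1388872_at, -0.708 to 0.52 for Fdft1 1367839_at, -0.626 to 0.276 for Lss 1368086_a_at, -0.839 to 0.181 for Lss 1372973_at, -1.13 to 0.249 for Cyp51 1387020_at, -0.222 to 1.10 for Srebf2 1377489_at, -0.735 to 0.535 for Insig1 and -0.0123 to 0.996 for Mvk. Of the 12 member probe sets, 8 were in the brighter subset, with a median of -0.284. With the replicate number as a block, 9 of 12 member means were lower, as were 47.3% of all probe sets. The member median was -0.374 and 0 probe sets passed, so the block changed no call. Compression of unknown size between arrays limits all of these values.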

Other observations

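High-fat replicate 4 was the highest array for 12 of the 30 other cholesterol genes, or 40%, against 17.2% of all named genes, both by the probe set of highest mean. These 12 were Abcg1, Ebp, Insig2, Lbr, Lipa, Mbtps2, Msmo1, Mylip, Npc2, Nr1h2, Nr1h3 and Stard4, chosen after their values were seen. They include the lysosomal lipase gene Lipa, the lysosomal sterol carrier gene Npc2, and Nr1h3, which encodes LXR alpha. Of these genes Msmo1, Insig2 and Nr1h3 read 6.63, 6.56 and 6.12, within the span of the hepatocyte markers, where presence of a transcript is not shown. Among the member probe sets high-fat replicate 4 was the highest array for 3 of 12 (25%; Insig1, Cyp51 1367979_s_at and Srebf2 1371979_at), against 14.4% of all tested probe sets. Mulberry replicate 3 was the highest array for as many members, 3 of 12 (Fdft1, Idi1 and Lss). The monocyte and natural killer marker means were also highest on high-fat replicate 4, and their part in its high cholesterol gene values was not tested.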
